A study of Mus musculus with 16 samples.

Results

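Gene expression in the supraspinatus tendon of the mouse was set against that in 3 other tendons. The supraspinatus tendon joins a muscle on the shoulder blade to the head of the humerus and forms part of the rotator cuff, the sleeve of tendons that steadies the shoulder joint. The other tendons were the Achilles tendon of the hindlimb, the flexor tendon of the forepaw and the patellar tendon of the knee. Total RNA was sequenced from 4 Supraspinatus libraries and from 4 libraries each of Achilles, Flexor and Patellar, so that the Supraspinatus libraries were 4 of 16. All came from C57BL/6J mice, an inbred laboratory strain. The labels used here name no mutation, treatment or age for any group, so the groups differ in the tendon alone as far as the labels go. The libraries of each tendon are numbered as mice 1 to 4, but the labels leave unsaid whether mouse 1 of one tendon is also mouse 1 of another. The p-values of single genes below therefore measure the spread between these libraries. Those of shares of counts also take in differences among the 3 other tendons.

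A gene was counted as set apart in Supraspinatus when its lowest value in the 4 Supraspinatus libraries was above the highest of the other 12 libraries, or when its highest was below their lowest. Values are CPM, counts scaled to a common library size with the trimmed mean of M values (TMM), and 23754 of the 41204 genes of the deposited count table passed the filter on low counts. Each gene was also tested with edgeR's quasi-likelihood test, fitted to all 16 libraries, for the Supraspinatus mean minus the average of the other 3 tendon means and for Supraspinatus minus each other tendon, with Benjamini-Hochberg adjustment and a threshold of 0.05. Because the absence of overlap was read from the same counts, a small p of a gene that does not overlap is not independent support for it. Log2 fold changes are positive when a gene was higher in Supraspinatus, and the value after ± is their standard error (SE).

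Supraspinatus libraries held 86898889 to 107805065 counts, against 84414005 to 97180849 in Achilles, 97242489 to 106573353 in Flexor and 34559686 to 63235636 in Patellar. Genes with rRNA-like sequence took 2.93 to 3.59% of the Supraspinatus counts and 13.2 to 42% of the Patellar counts. The lowest correlation between libraries of the same tendon, across genes, was 0.978 in Supraspinatus and 0.903 in Patellar, so values against Patellar rest on fewer usable counts and a wider spread than the others.

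Tendon cells, or tenocytes, build the collagen fibres that carry load, and are commonly recognised by the transcription factors Scx and Mkx and by tenomodulin. Near its ends a tendon grades into other tissues, into muscle at the myotendinous junction and into fibrocartilage and bone at its attachment, and it also carries blood vessels, nerve fibres, fat and resident immune cells. Adult mouse muscle fibres differ in their myosin heavy chain, with Myh4 in the fastest fibres, Myh1 and Myh2 in other fast fibres and Myh7 in slow fibres, and the fastest fibres rely most on glycolysis. Cells of connective tissue also keep a pattern of Hox and T-box transcription factors from the embryo that differs with their place in the body.

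The label was checked against tenocyte markers. Scx had 44.7, 35.4, 51.6 and 93.5 CPM in the 4 Supraspinatus libraries, against means of 18.8 in Achilles, 4.9 in Flexor and 102 in Patellar. Tenomodulin, Tnmd, had 76.8 to 259 CPM in Supraspinatus and 84.9 to 398 CPM in the other libraries. The 8 tenocyte markers took 0.701% ± 0.358 of counts in Supraspinatus, 0.486% ± 0.209 in Achilles, 0.514% ± 0.0459 in Flexor and 1.04% ± 0.329 in Patellar (SD, n = 4 each). These defining markers were thus present in every Supraspinatus library. Skeletal muscle markers took 20.3 to 22.1% of the Supraspinatus counts, more than in any other library, where they took 0.115 to 16.3%. Marker shares here and below are of all counts, those of rRNA-like genes included, which lowers the Patellar shares most.

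Supraspinatus stood apart mainly by genes that were higher. Of 23754 genes, 2071 (8.72%) were higher in every Supraspinatus library than in all other 12 libraries, and 1085 (4.57%) were lower. By the same count on the same values, Achilles had 396 higher (1.67%) and 155 lower (0.653%), Flexor 861 higher (3.62%) and 924 lower (3.89%), and Patellar 1671 higher (7.03%) and 2919 lower (12.3%). With CPM computed on total counts, which include the rRNA-like reads of Patellar, the split turned, to 1132 higher and 1904 lower in Supraspinatus, with 1121 of the higher genes and 1071 of the lower genes shared with the TMM-scaled lists.

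**Figure D1:**
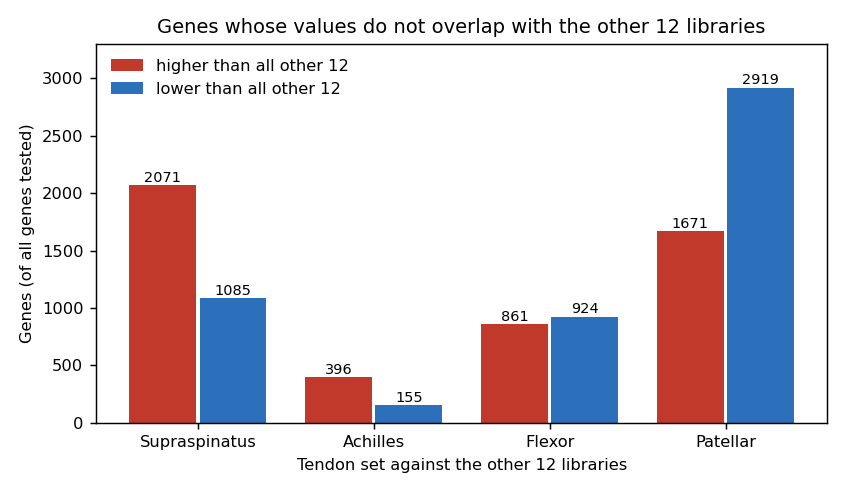
Number of genes, of 23754 tested, whose TMM-scaled CPM in the 4 libraries of a tendon lay wholly above (red) or wholly below (blue) that of the other 12 libraries. Supraspinatus has 2071 genes above and 1085 below, more genes above than any other tendon, and Patellar has the most genes below, 2919.

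In the edgeR test of Supraspinatus against the mean of the other tendons, 5691 genes were higher (24%) and 4847 lower (20.4%). These shares of all genes are the background for the list members called higher or lower below. Against Achilles, 4014 were higher (16.9%) and 3958 lower (16.7%). Against Flexor, the other forelimb tendon, 3492 were higher (14.7%) and 2949 lower (12.4%). Against Patellar, 6274 were higher (26.4%) and 6377 lower (26.8%). Genes that did not overlap and passed all 4 contrasts in the same direction numbered 1439 higher (6.06%) and 815 lower (3.43%).

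Most gaps were narrow. The gap of a gene is the lowest value of its higher side over the highest value of its lower side, with 0.1 CPM added to each. Its median was 1.2-fold among the higher genes and 1.16-fold among the lower genes, and 607 and 389 of them had a gap under 1.1-fold. At least a 2-fold gap was found for 185 higher and 90 lower genes. At the edge, Wdr82 and Zfp281 lay just inside the higher group, with lowest Supraspinatus values of 30.3 and 29.7 CPM that equalled the highest of the others after rounding, and Asph and Psmb5 lay just outside, at 200 and 68.7 CPM. Dcxr and Ddhd2 lay just inside the lower group, with highest Supraspinatus values of 11.1 and 28.5 CPM, and Cd82 and Shtn1 lay just outside it, at 30.4 and 5.12 CPM. The tendon with the value nearest to Supraspinatus was Flexor for 1060 of the higher and 609 of the lower genes, Achilles for 631 and 258, and Patellar for 380 and 218.

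The genes without overlap were unevenly spread over gene classes. Of 15825 protein-coding genes, 10.7% were higher and 4.89% lower in Supraspinatus. Of 2372 processed pseudogenes, 10.4% were higher and 1.35% lower, and since such copies share sequence with their parent genes their counts are uncertain. Of 1570 loci annotated as yet to be experimentally verified (TEC), 0.573% were higher and 6.88% lower. Exonic length did not separate the groups, with medians of 4392 bases among higher, 4414.5 among lower and 4269 among all protein-coding genes tested.

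Of the 12 higher genes with the widest gaps, 10 were in no list of cell type markers. Myo1a, an unconventional myosin known from the brush border of the gut (ENSMUSG00000025401, chromosome 10, 127705170 to 127720940 on GRCm38, the assembly called mm10), had 12.2, 3.85, 5.22 and 9.71 CPM in Supraspinatus. In the other 12 libraries it had 0 to 0.32 CPM. Every Supraspinatus library was thus far above the rest, with a gap of 9.41-fold and a log2 fold change of 6.12 ± 0.47 (edgeR adjusted p = 7.1e-08).

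Unc5a, a receptor for the guidance cue netrin (ENSMUSG00000025876, chromosome 13, 54949411 to 55006018), had 29.3, 22, 27.7 and 31 CPM in Supraspinatus. It had 2.25, 2.36, 2.84 and 2.11 CPM in Achilles, 2.08, 1.99, 1.38 and 1.45 CPM in Flexor and 1.13, 1.25, 2.53 and 1.16 CPM in Patellar. The other tendons lay close together and none came near Supraspinatus (log2 fold change 3.91 ± 0.17, edgeR adjusted p = 7.7e-10).

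Tbx1, a T-box transcription factor of head and pharyngeal development (ENSMUSG00000009097, chromosome 16, 18580979 to 18590671), had 42.9, 44.5, 40.4 and 44.9 CPM in Supraspinatus, against at most 5.45 CPM elsewhere. Its Supraspinatus values were among the least spread of all (43.2 ± 2.02 CPM, SD, n = 4), and its log2 fold change was 3.78 ± 0.26 (edgeR adjusted p = 2.4e-08). Shisa2, an endoplasmic reticulum protein that restrains Wnt and FGF receptors (chromosome 14, 59625308 to 59631660), had 137, 164, 149 and 135 CPM in Supraspinatus. Its highest value elsewhere was 20 CPM, in Flexor, and the groups did not overlap. Mafa, a transcription factor best known from the beta cells of the pancreas (chromosome 15, 75745490 to 75748228), had 21.3, 21.2, 14.4 and 28.8 CPM in Supraspinatus and at most 2.74 CPM in the others.

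Channels were also among these genes. Panx1, which forms channels that release ATP from cells (chromosome 9, 15002128 to 15045478), had 51.1, 36.6, 58.7 and 38.4 CPM in Supraspinatus. It had 6.57 ± 0.598 CPM in Achilles, 2.28 ± 0.492 in Flexor and 1.59 ± 0.262 in Patellar (SD, n = 4 each), for a log2 fold change of 4 ± 0.14 (edgeR adjusted p = 5e-11). Kcnc4, a voltage-gated potassium channel found in fast muscle, had 242, 153, 232 and 282 CPM in Supraspinatus and 0.754 to 32.5 CPM in the others. Again no library of another tendon reached the lowest Supraspinatus value.

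Further genes of the same group had gaps from 3.72- to 6.72-fold. Tpbgl had 38.1 to 52.9 CPM in Supraspinatus and at most 5.58 CPM elsewhere. Cyp4f39, a fatty acid hydroxylase of skin lipids, had 3.37 to 6.82 CPM against at most 0.45 CPM. Prima1, which anchors acetylcholinesterase in membranes, had 4.26 to 14.8 CPM against at most 0.915 CPM. Ntf5, the neurotrophin that supports motor and sensory nerve cells, had 4.88 to 8.28 CPM against at most 1.24 CPM. The ubiquitin ligase adaptors Klhl21 and Fbxo31 and the gene C2cd2 were more abundant, with 127 to 172, 264 to 311 and 229 to 390 CPM in Supraspinatus against highest values of 30.6, 67 and 58.1 CPM in the others. All 7 of these genes passed the test against each other tendon alone, but the rule that named them required this.

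**Figure D2:**
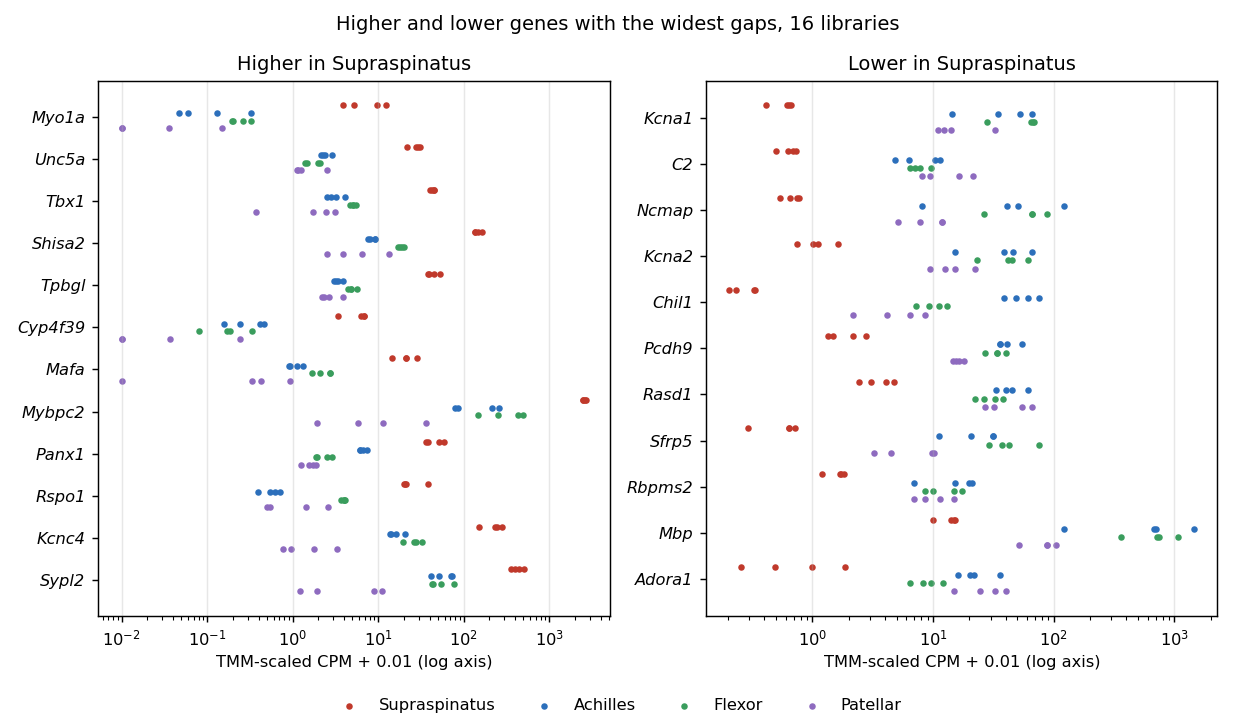
TMM-scaled CPM, with 0.01 added and on a log axis, of the 12 higher genes (left) and 11 of the 12 lower genes (right) with the widest gap in each of the 16 libraries, each point being a library coloured by tendon. In each row the 4 Supraspinatus points lie wholly on one side of the other 12, by 9.41-fold for Myo1a and 14.4-fold for Kcna1.

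Genes of skeletal muscle were higher, and those of fast fibres in particular were set apart. Of 84 skeletal muscle markers tested, 67 were higher and 8 lower against the mean of the other tendons. Their median log2 fold change was 2.36, against -0.07 over all genes tested. By tendon the median was 0.97 against Achilles, 0.8 against Flexor and 5.03 against Patellar. Of the 84 markers, 33 did not overlap on the higher side and 1 on the lower side. Of 17 fast-fibre genes, 16 were higher, 0 lower, and 14 did not overlap. Their median was 2.26 against Achilles, 1.07 against Flexor and 5.51 against Patellar. Of 15 slow-fibre genes, 1 was higher and 9 lower, with a median log2 fold change of -2.45. Against Achilles, Flexor and Patellar this median was -4.8, -0.64 and -1.67. Whether the supraspinatus tendon holds more muscle cells or more muscle RNA per cell cannot be told apart in bulk RNA, and the same holds for every cell type below.

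Among fast-fibre genes, Mybpc2, the fast form of myosin-binding protein C (ENSMUSG00000038670, chromosome 7, 44501699 to 44524656), had the widest gap. It had 2476, 2600, 2719 and 2461 CPM in Supraspinatus. It had 78.7, 85.2, 259 and 215 CPM in Achilles, 488, 429, 146 and 252 CPM in Flexor and 36, 1.94, 5.83 and 11.4 CPM in Patellar. The Supraspinatus libraries lay close together while those of each other tendon were spread widely, and the log2 fold change was 4.84 ± 0.48 (edgeR adjusted p = 9.4e-07).

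Actn3, the alpha-actinin of fast fibres, had 7459, 7851, 7014 and 7746 CPM in Supraspinatus, against 6.97 to 1874 CPM in the others. Pvalb, the calcium buffer parvalbumin that speeds relaxation, had 7063, 7304, 6458 and 5825 CPM in Supraspinatus, against 8.14 to 1966 CPM. Casq1, the calcium store protein of fast fibres, had 3632, 3329, 3728 and 3634 CPM in Supraspinatus, against 5.22 to 1467 CPM. For all of these the highest other library was from Flexor, and all passed the test against each tendon, with log2 fold changes against Flexor of 2.56, 2.26 and 1.73. Mylk2, the myosin light chain kinase of skeletal muscle, and Sypl2, a membrane protein of the junctions that release calcium, did not overlap either, at 905 to 1193 and 359 to 503 CPM in Supraspinatus against highest values of 216 and 77 CPM. Acta1, the muscle actin, had 40390 to 42879 CPM in Supraspinatus and at most 32515 CPM in the others, and passed against the mean of the other tendons but not against Achilles or Flexor (edgeR adjusted p = 0.23 and 0.21).

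Myh4, the myosin of the fastest fibres (ENSMUSG00000057003, chromosome 11, 67238029 to 67260446), had 29396, 28723, 29098 and 24577 CPM in Supraspinatus. It had 116, 120, 331 and 840 CPM in Achilles, 7028, 12167, 11160 and 5635 CPM in Flexor and 233, 29.7, 73.8 and 106 CPM in Patellar. The values did not overlap, and the log2 fold change against the mean was 5.31 ± 0.46 (edgeR adjusted p = 2.5e-07), while the contrast with Flexor did not pass (1.64, edgeR adjusted p = 0.061). Slow-fibre genes lay at the other end. Tnnc1, the calcium-binding troponin of slow and heart muscle, had 3.95, 2.84, 2.64 and 3.77 CPM in Supraspinatus, against 6.21 to 1764 CPM in the others. Tpm3, the slow tropomyosin, had 59.1 to 68.2 CPM in Supraspinatus and 100 to 2784 CPM in the others. Both were below every other library, Tnnc1 by a log2 fold change of -5.46 ± 0.94 (edgeR adjusted p = 0.00021), although a single Patellar library, replicate 1 with 237 CPM, held most of the Tnnc1 counts of that tendon. The contrast of Tpm3 with Flexor did not pass (-0.89, edgeR adjusted p = 0.088).

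The slow myosin Myh7 did not meet the rule, since the Flexor libraries overlapped with Supraspinatus. It had 8.68, 6.63, 8.93 and 6.08 CPM in Supraspinatus, 7.48 to 23.9 CPM in Flexor, 11.3 to 213 CPM in Patellar and 2401 to 5220 CPM in Achilles. Myh7b, a slow myosin whose gene also hosts a muscle microRNA, was lower than in all others, at 0.752 to 1.11 CPM in Supraspinatus against 2.49 to 23.8 CPM. Sln, which codes for sarcolipin, an inhibitor of the calcium pump, had 0.476 to 1.4 CPM in Supraspinatus and overlapped only with Patellar, where the lowest library had 0.612 CPM. The slow-fibre member that was called higher was Lmcd1, a cofactor that represses GATA6 (chosen after its values were seen), at 0.71 ± 0.24 (log2, edgeR adjusted p = 0.026). Its level was 295 ± 83.9 CPM in Supraspinatus, 350 ± 102 in Achilles, 331 ± 92.2 in Flexor and 50.8 ± 21.9 in Patellar (SD, n = 4 each), so that it was higher against Patellar alone, and without the Patellar libraries the sign turned (-0.17, edgeR adjusted p = 0.56).

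The composition of myosin was compared within libraries, so that the amount of muscle RNA drops out. Counts of Myh4, Myh1, Myh2 and Myh7 were divided by exonic length and given as a percentage of their sum, a comparison chosen after the values of these genes were seen. Myh4 made up 76.2, 82.6, 77.8 and 77.2% in Supraspinatus. It made up 5.02% ± 5.21 in Achilles, 49.8% ± 13.2 in Flexor and 37.5% ± 9.95 in Patellar (SD, n = 4 each), and the highest of these libraries stood at 61.1%. The difference in means, 47.7 percentage points, had p = 0.0011 in an exact 2-sided permutation test of 4 against 12 libraries (adjusted p = 0.0044 over 4 tests). Because the comparison was chosen on these values, and Myh4 had been found without overlap, this p is not independent support. The shares are parts of the same sum, so the tests of the other myosins are not separate support either. Myh2 made up 3.22% ± 0.827 in Supraspinatus, against 37.2% in Achilles, 9.78% in Flexor and 24.2% in Patellar (exact permutation, adjusted p = 0.0297). Myh7 made up 0.0148% ± 0.0017 in Supraspinatus, against 35.4% in Achilles, 0.0448% in Flexor and 11.4% in Patellar (exact permutation, adjusted p = 0.0462). Myh1 made up 18.3% ± 2.44 in Supraspinatus, against 22.4% in Achilles, 40.4% in Flexor and 26.9% in Patellar (exact permutation, adjusted p = 0.0462). The Patellar shares rest on libraries with 0.115 to 1.49% of counts in muscle markers.

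**Figure D3:**
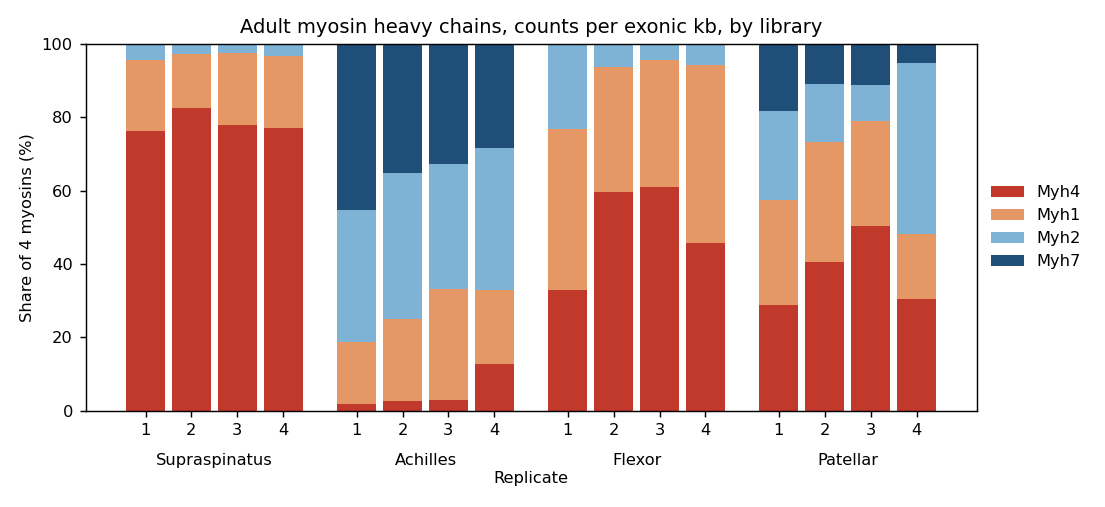
Share (%) of 4 adult myosin heavy chains in each of the 16 libraries, from counts per exonic kilobase. Myh4 takes 76.2 to 82.6% in the Supraspinatus libraries, while Myh7 is visible in Achilles and Patellar libraries and takes 0.0148% on average in Supraspinatus.

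Promoters of fast-fibre genes were read to show the sequence at the starts of the genes that carried this difference. Shown are the 4 fast-fibre genes without overlap that had the widest gaps among those in the RefSeq promoter table (Mybpc2, Pvalb, Casq1 and Myh4), with the 250 bases before the first listed start on GRCm38.p6, 5′ to 3′ on the strand of the gene. Capitals mark CAGCTG, a form of the E-box CANNTG that the muscle basic helix-loop-helix factors bind and that reads the same on both strands, and CATTCC, the core of the M-CAT site of the TEAD factors, which reads GGAATG on the other strand. The 2 motifs do not overlap each other in these stretches. The Mybpc2 stretch is chr7:44524670-44524919 on the minus strand, the Pvalb stretch chr15:78206401-78206650 on the minus strand, the Casq1 stretch chr1:172219896-172220145 on the minus strand and the Myh4 stretch chr11:67237562-67237811 on the plus strand.
Mybpc2: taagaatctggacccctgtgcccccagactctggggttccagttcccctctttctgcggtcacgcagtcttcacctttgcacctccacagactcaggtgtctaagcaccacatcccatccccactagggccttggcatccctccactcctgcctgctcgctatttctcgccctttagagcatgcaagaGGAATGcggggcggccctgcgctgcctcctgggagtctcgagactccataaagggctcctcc
Pvalb: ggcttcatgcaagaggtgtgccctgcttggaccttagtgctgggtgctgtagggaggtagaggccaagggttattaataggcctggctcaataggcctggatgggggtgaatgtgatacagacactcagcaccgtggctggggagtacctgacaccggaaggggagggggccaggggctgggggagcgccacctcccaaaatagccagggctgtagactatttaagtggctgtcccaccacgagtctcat
Casq1: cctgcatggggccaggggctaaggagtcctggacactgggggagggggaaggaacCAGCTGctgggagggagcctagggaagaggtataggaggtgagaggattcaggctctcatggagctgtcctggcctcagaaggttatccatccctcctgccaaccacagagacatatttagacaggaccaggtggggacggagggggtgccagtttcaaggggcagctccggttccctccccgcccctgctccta
Myh4: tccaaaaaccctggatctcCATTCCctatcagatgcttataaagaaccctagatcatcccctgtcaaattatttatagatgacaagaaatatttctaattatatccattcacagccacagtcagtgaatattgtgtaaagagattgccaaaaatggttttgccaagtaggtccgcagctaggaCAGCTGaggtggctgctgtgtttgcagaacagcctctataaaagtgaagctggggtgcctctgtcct

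The Myh4 stretch held both motifs, CATTCC beginning 231 bases and CAGCTG 67 bases before the start. The Casq1 stretch held CAGCTG 195 bases before the start, and the Mybpc2 stretch GGAATG 62 bases before it. The Pvalb stretch, the first of 2 listed starts, held neither in this window. In stretches of this length, 6 of 13 matched fast-fibre genes held CAGCTG (46.2%) and 6 held CATTCC on either strand (46.2%), against 12.6% and 11.2% of 13724 genes tested. Over all genes set apart in Supraspinatus the shares lay near those of all genes, with CAGCTG in 13.6% of 1409 higher and 11.3% of 690 lower genes that matched, and CATTCC in 10.9% and 10.7%. These matches describe letters and show no binding.

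Genes of glycolysis, the energy route of the fastest fibres, were higher too. Of 33 glycolysis genes, 22 were higher and 2 lower, 14 did not overlap on the higher side, and the median log2 fold change was 1.48. By tendon the median was 1.18 against Achilles, 0.37 against Flexor and 2.83 against Patellar. Pgm1, which makes glucose 6-phosphate from glycogen breakdown, had 793, 779, 852 and 927 CPM in Supraspinatus, against 66.3 to 359 CPM in the others. Ldha, the lactate dehydrogenase of fast muscle, had 2684, 2763, 2904 and 2656 CPM in Supraspinatus, against 383 to 1532 CPM. Neither gene overlapped, and Ldha was higher than each other tendon, by 0.92 (log2, edgeR adjusted p = 0.00068) against Flexor and 2.53 (edgeR adjusted p = 3e-08) against Patellar. Phkg1, a subunit of the kinase that switches on glycogen breakdown, had 234 to 259 CPM in Supraspinatus and at most 118 CPM in the others. Pgam2, the muscle phosphoglycerate mutase, had 1656 to 2157 CPM and at most 969 CPM, and passed against Patellar but not against Achilles or Flexor (edgeR adjusted p = 0.067 and 0.2).

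Genes of oxidative phosphorylation, the mitochondrial route to ATP, were higher in number but not set apart. Of 73 members, 64 were higher and 2 lower, with a median log2 fold change of 0.78, yet 0 did not overlap on the higher side. The median was 0.33 against Achilles, 0.33 against Flexor and 1.56 against Patellar. With the muscle marker level of each library as a covariate, 9 were higher, without the Patellar libraries 30 were higher, and with both 1 was higher and 2 lower. The member below all other libraries was Cox8a, the form of this cytochrome oxidase subunit found outside heart and skeletal muscle, at 63 to 82.7 CPM in Supraspinatus against 85.6 to 244 CPM. Of 31 fatty acid oxidation genes, 12 were higher and 3 lower, against 24% and 20.4% of all genes. Of these 31 genes, 0 were without overlap in either direction. Their median log2 fold change was -0.46 against Achilles, 0.34 against Flexor and 0.81 against Patellar. Without the Patellar libraries, 2 were higher and 5 lower, and with the muscle covariate as well 0 were higher and 14 lower.

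Mstn, which codes for myostatin, a secreted brake on muscle growth, had 87.2, 97.8, 99.1 and 112 CPM in Supraspinatus. It had 57.3 ± 19.1 CPM in Flexor, 4.19 ± 2.03 in Achilles and 0.722 ± 0.312 in Patellar (SD, n = 4 each). No library overlapped, but the contrast with Flexor did not pass (0.79, edgeR adjusted p = 0.074). With the muscle marker level as a covariate, 1544 of the 2071 higher genes and 820 of the 1085 lower genes still passed against the mean of the other tendons, and with the covariate and without the Patellar libraries 1888 and 917 passed. Over all genes the covariate cut the calls against Patellar, from 6274 to 2159 higher and from 6377 to 1869 lower. Against Achilles it left 4105 higher and 4053 lower, and against Flexor 3625 and 3051, no fewer than without it. Whether the genes that still passed depend on muscle content was not tested.

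Nerve genes were among the lower genes with the widest gaps. Of 20 markers of Schwann cells, which wrap axons, and of nerve fibres, 16 were lower and 0 higher, 11 lay below every other library, and the median log2 fold change was -3.83. Kcna1, a potassium channel placed beside the nodes of myelinated axons (ENSMUSG00000047976, chromosome 6, 126640397 to 126646384), had 0.66, 0.406, 0.611 and 0.626 CPM in Supraspinatus. It had 52.8, 14.3, 65.5 and 34.4 CPM in Achilles, 67.2, 69.1, 28.1 and 65 CPM in Flexor and 14, 32.8, 12.3 and 10.9 CPM in Patellar. The gap of 14.4-fold was the widest of all lower genes, and the log2 fold change was -5.91 ± 0.51 (edgeR adjusted p = 2.4e-07). Its partner Kcna2 had 0.733 to 1.61 CPM in Supraspinatus against 9.51 to 65.8 CPM.

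Myelin genes were lower too. Mbp, myelin basic protein, had 15, 15.1, 14.2 and 10 CPM in Supraspinatus and 51.4 to 1459 CPM in the others. Ncmap, a myelin-associated membrane protein, had 0.524 to 0.768 CPM in Supraspinatus and 5.14 to 121 CPM in the others, and Sox10, the transcription factor of the Schwann cell lineage, 0.244 to 0.501 CPM against 2.56 to 37.7 CPM. All 3 passed against each tendon, Patellar included, but the rule that named Mbp and Ncmap among the widest gaps required this. The whole list took 0.0407 to 0.0493% of counts in Supraspinatus and 0.0528 to 0.651% in the others, without overlap, but the exact permutation test of the shares did not pass (adjusted p = 0.0779 over 18 lists).

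Some smooth muscle genes were lower as well. Of 15 pericyte and smooth muscle markers, 6 were lower and 2 higher, against 20.4% and 24% of all genes. Tagln, an actin-binding protein of smooth muscle, had 2.07, 3.16, 3 and 2.35 CPM in Supraspinatus and 7.48 to 55.7 CPM in the others. Myh11, the smooth muscle myosin, had 26.7 to 27.3 CPM in Supraspinatus and 35.4 to 899 CPM in the others, so that both lay below all other libraries. Rbpms2, an RNA-binding protein of smooth muscle, had 1.2 to 1.82 CPM in Supraspinatus and 6.93 to 20.9 CPM in the others. Of 20 endothelial markers, 5 were lower (against 20.4% of all genes) and 1 higher. With the muscle covariate the balance turned, with 3 lower and 9 higher, while without the Patellar libraries 13 were lower and 2 higher, and with both 12 and 2.

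Fat genes were lower against the hindlimb tendons. Of 22 adipocyte markers, 21 were lower and 0 higher against the mean of the other tendons, with medians of -2.95 against Achilles, -3.79 against Patellar and -0.06 against Flexor. Only 3 of them did not overlap. Car3, a carbonic anhydrase abundant in fat and slow muscle, had 212, 616, 285 and 277 CPM in Supraspinatus, against 1909 to 6533 CPM in the others. Lep, the hormone leptin, had 1.59 to 3.63 CPM in Supraspinatus, 7.31 ± 3.25 CPM in Flexor, 156 ± 91.5 in Achilles and 203 ± 83.1 in Patellar (SD, n = 4). Scd1, a desaturase of fatty acid synthesis, had 122 to 340 CPM in Supraspinatus and at least 397 CPM in the others. The adipocyte share of counts was 0.209% in Supraspinatus, 0.491% in Flexor, 2.36% in Achilles and 2.66% in Patellar, without overlap (exact permutation, adjusted p = 0.0779).

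Mast cells are resident immune cells that store histamine and proteases. Their markers were rare in every tendon and rarer in Supraspinatus, with 9 of 11 lower, 0 higher and 4 without overlap. Tpsb2, a tryptase, had 0.0325, 1.73, 0.11 and 0.216 CPM in Supraspinatus and 3.2 to 13.7 CPM in the others. Cma1, a chymase, had 0.0541, 1.94, 0.0489 and 0.239 CPM in Supraspinatus and 2.23 to 12.5 CPM in the others. Cpa3 and Mcpt4 showed the same order, and replicate 2 was the highest Supraspinatus library for all 4 of these genes. Their share of counts passed the exact permutation test, at 0.000448% in Supraspinatus against 0.00307% in Achilles, 0.00347% in Flexor and 0.00417% in Patellar (adjusted p = 0.00989), and without Supraspinatus replicate 1 the adjusted p was 0.059.

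**Figure D4:**
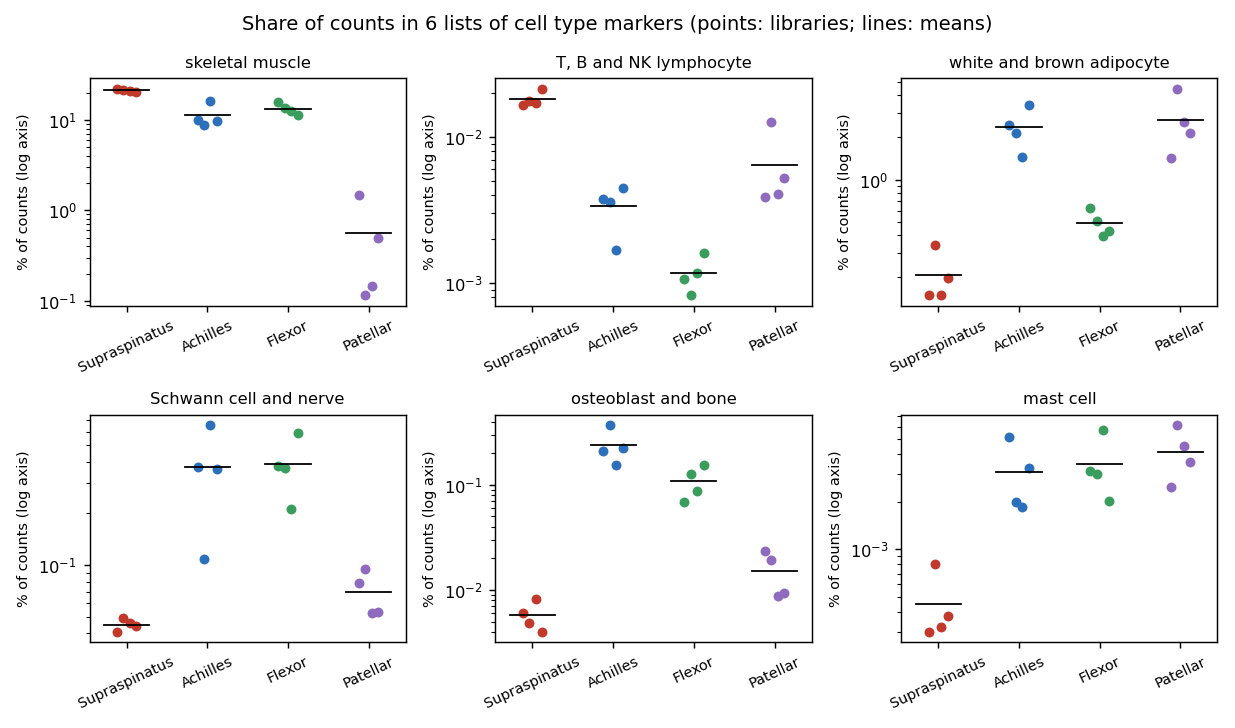
Percent of counts in 6 lists of cell type markers, on log axes, with a point for each library and a line at each tendon's mean. Skeletal muscle markers are highest in Supraspinatus (20.3 to 22.1%), and adipocyte, Schwann cell and mast cell markers lie below those of all other libraries there.

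Of 18 marker lists whose shares were tested, 3 passed, 2 higher and 1 lower in Supraspinatus, with exact permutation tests whose smallest possible p is 0.000549. These tests pool the libraries of the other tendons, so differences among those tendons enter the p-values. The skeletal muscle share passed (12.8 percentage points above the mean of the others, adjusted p = 0.00989), although without Supraspinatus replicate 1 or 2 its adjusted p was 0.066 or 0.053 by the same exact permutation test. The third was that of lymphocytes, at 0.0182% in Supraspinatus, 0.00338% in Achilles, 0.00117% in Flexor and 0.00645% in Patellar (exact permutation, adjusted p = 0.00989). Most of it came from a single gene. Ighm, the heavy chain of immunoglobulin M (ENSMUSG00000076617, chromosome 12, 113418558 to 113422730), had 190, 197, 199 and 234 CPM in Supraspinatus. It had 25.1 ± 9.28 CPM in Achilles, 9.14 ± 2.88 in Flexor and 56.3 ± 26.4 in Patellar (SD, n = 4 each). The highest other library had 95 CPM, and the log2 fold change was 3.13 ± 0.23 (edgeR adjusted p = 4.2e-08).

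The other lymphocyte markers were near zero. Cd79a, the partner of immunoglobulin in the B cell receptor (chosen after its values were seen), had 0.0393 to 0.208 CPM in Supraspinatus and 0 to 0.56 CPM in the others and did not pass (edgeR adjusted p = 0.28). Cd3e, a chain of the T cell receptor complex, had 0.671, 0.733, 1.43 and 2.54 CPM in Supraspinatus against at most 0.414 CPM in the others, while Cd4, the co-receptor of helper T cells, had 0 to 0.0455 CPM in Supraspinatus against 0.0538 to 0.619 CPM. These T cell genes thus lay on opposite sides. Of 18 macrophage markers, 1 was higher and 3 lower, against 24% and 20.4% of all genes, with a median log2 fold change of 0.01. Their share of counts was 0.118% in Supraspinatus and 0.121% on average in the others (exact permutation, adjusted p = 0.917). With the muscle covariate 4 were higher and 2 lower. Without overlap, 0 lay above and 2 below. Cx3cr1, the fractalkine receptor, had 0.487, 0.314, 0.586 and 0.843 CPM in Supraspinatus and 2.46 to 25.2 CPM in the others, and Mertk, a receptor for dying cells, 5.08 to 12.6 CPM against 15.5 to 48.6 CPM. C2, an early component of the classical complement cascade (chromosome 17, 34862604 to 34898265), had 0.682, 0.615, 0.489 and 0.717 CPM in Supraspinatus and 4.84 to 21.4 CPM in the others. It lay below every other library with a gap of 6.05-fold.

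More genes of cartilage and bone were lower than higher in Supraspinatus. Of 27 cartilage genes, 17 were lower (against 20.4% of all genes) and 2 higher, with a median log2 fold change of -1.28. Ucma, a small matrix protein of cartilage, had 0.411, 0.0786, 0.171 and 0.421 CPM in Supraspinatus and 1.32 to 13.9 CPM in the others. Clec3a, a cartilage lectin, had 15.2, 11.5, 26.6 and 23.7 CPM in Supraspinatus and 51.9 to 510 CPM in the others. Col9a3, a chain of the collagen that decorates cartilage fibrils, had 0.0977 to 0.262 CPM in Supraspinatus and 0.511 to 8.32 CPM in the others. None of the 3 overlapped. Acan, the main cartilage proteoglycan, and Sox9, the transcription factor of the cartilage lineage, overlapped and did not pass. Acan had 6.38, 3.1, 49.6 and 21.2 CPM in Supraspinatus and 7.19 to 114 CPM in the others (log2 fold change -0.69, edgeR adjusted p = 0.44). Sox9 had 36.2 to 60.6 CPM in Supraspinatus and 13.4 to 59.8 CPM in the others (0.43, edgeR adjusted p = 0.23), and passed as higher without Patellar replicate 1 (0.59, edgeR adjusted p = 0.03).

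The cartilage member on the other side was Sox6, a transcription factor that acts with Sox9 in cartilage and also represses slow-fibre genes in mouse muscle. It had 117, 94.2, 112 and 132 CPM in Supraspinatus and 20.3 to 58 CPM in the others, with a log2 fold change of 1.53 ± 0.13 (edgeR adjusted p = 2.6e-07). In the fit with the muscle covariate, 8 cartilage genes were lower and 2 higher. Prg4, which codes for lubricin, the lubricant of gliding surfaces, had 756, 864, 1140 and 767 CPM in Supraspinatus and 1285 to 3946 CPM in the others. It lay below all of them by a narrow gap of 1.13-fold.

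Of 12 osteoblast and bone genes, 6 were lower and 0 higher, against 20.4% and 24% of all genes. Ibsp, bone sialoprotein (ENSMUSG00000029306, chromosome 5, 104299171 to 104311469), had 0.379, 0.314, 0.672 and 0.524 CPM in Supraspinatus. It had 293, 807, 351 and 606 CPM in Achilles, 3.21, 4.07, 1.69 and 7.48 CPM in Flexor and 37.9, 27.3, 23.5 and 13.3 CPM in Patellar. The Supraspinatus libraries were the lowest of all, and Ibsp was lower than in each tendon, with a log2 fold change of -3.12 against Flexor (edgeR adjusted p = 0.00014). Bglap, osteocalcin, whose near-identical copies make its counts uncertain, had 0 to 0.0524 CPM in Supraspinatus and 0.0624 to 1.92 CPM in the others. Chil1, a chitinase-like protein secreted by cartilage and other cells, had 0.325, 0.223, 0.195 and 0.319 CPM in Supraspinatus and 2.15 to 75.3 CPM in the others.

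Structural matrix genes moved less, and are given beside the 20.4% of all genes that were lower and the 24% that were higher. Of 35 fibrillar and fibril-associated collagens, 13 were lower and 3 higher, and Col9a3 was the only one without overlap. Of 27 basement membrane genes, 12 were lower and 4 higher. Col4a4, a chain of the collagen IV network, had 1.62, 1.31, 1.33 and 1.95 CPM in Supraspinatus and 5.19 to 24 CPM in the others, and its neighbour Col4a3 0.681 to 1.15 CPM against 2.09 to 7.49 CPM. Smoc1, a calcium-binding protein of basement membranes, had 1.61 to 3.47 CPM in Supraspinatus and 8.95 to 85.2 CPM in the others. Lamc1, the laminin gamma 1 chain, went the other way, with 154 to 235 CPM in Supraspinatus and 70 to 124 CPM in the others. Given the muscle covariate, 5 basement membrane genes were lower and 2 higher, and without the Patellar libraries as well 11 were lower and 1 higher.

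Of 53 matrix proteases and crosslinking enzymes, 10 were higher and 11 lower, close to the 24% and 20.4% of all genes, while 2 lay above and 6 below without overlap. Adamts5, an aggrecan-cleaving protease, had 19.2, 19, 22.9 and 17.6 CPM in Supraspinatus and 49.9 to 127 CPM in the others. Adamts15 and the protease-like protein Adamtsl1 lay below the other libraries too, at 1.62 to 5.33 and 2.19 to 4.07 CPM in Supraspinatus, against lowest values of 7.13 and 9.25 CPM in the others. P4ha3, a prolyl hydroxylase that modifies new collagen, lay above them, with 20.3, 30.7, 44.7 and 47.4 CPM in Supraspinatus and 0.0694 to 9.55 CPM in the others.

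Single position factors were set apart in Supraspinatus, in numbers near the background. Of 34 Hox genes and of 34 other limb factors, 3 each lay above and 2 each below all other libraries, close to the 8.72% and 4.57% of all genes. Pax1, a transcription factor of the vertebral column and the shoulder girdle in the mouse embryo (chromosome 2, 147361925 to 147393295), had 1.02, 2.78, 1.01 and 1.28 CPM in Supraspinatus. It had 0 to 0.06 CPM in Achilles, 0.0176 to 0.0803 CPM in Flexor and 0 to 0.0694 CPM in Patellar. The level was low, and all Supraspinatus libraries stood above the highest of the others. The gene was named for this gap, so its log2 fold change of 5.74 ± 0.53 (edgeR adjusted p = 4.6e-07) is not independent support. En1, a homeobox factor known from the ventral limb ectoderm (chromosome 1, 120602418 to 120607992), had 4.65, 4.79, 4.7 and 3.32 CPM in Supraspinatus and at most 1.93 CPM in the others, with Achilles next. Tbx15, needed for the shoulder blade in mice and known from fast fibres (chosen after its values were seen), had 370 to 410 CPM in Supraspinatus, 272 ± 40.7 CPM in Flexor, 144 ± 19.3 in Achilles and 58.2 ± 8.39 in Patellar (SD, n = 4 each).

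Tbx5, the T-box factor of the forelimb (chromosome 5, 119832668 to 119885219), had 18.8, 18.7, 19.8 and 23.9 CPM in Supraspinatus. It had 50.8 ± 5.31 CPM in Flexor, 7.88 ± 0.961 in Patellar and 0.315 ± 0.151 in Achilles (SD, n = 4 each). Supraspinatus thus lay between Flexor and Patellar, lower than Flexor by a log2 fold change of -1.32 (edgeR adjusted p = 0.00026) and higher than Patellar by 1.37 (edgeR adjusted p = 8.6e-05). Tbx4, the corresponding factor of the hindlimb (chromosome 11, 85886422 to 85916097), had 5.26, 4.39, 3.84 and 3.55 CPM in Supraspinatus and 9.2 to 26.5 CPM in the others, so that Supraspinatus was lowest, below the other forelimb tendon as well. Pitx1, a hindlimb factor, had 9.76 to 14.1 CPM in Supraspinatus, 0.226 ± 0.0863 CPM in Flexor, 19.3 ± 8.27 in Achilles and 61 ± 15.7 in Patellar (SD, n = 4 each). It was higher than Flexor (log2 fold change 5.75, edgeR adjusted p = 2.5e-08), lower than Patellar (-2.3, edgeR adjusted p = 5.5e-06) and did not pass against Achilles (edgeR adjusted p = 0.079).

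Of the Hox genes, 17 were higher and 12 lower than the mean of the other tendons, against 24% and 20.4% of all genes. Their median log2 fold change was 1.4 against Flexor, 0.29 against Achilles and -0.15 against Patellar. Among them 5 did not overlap, namely Hoxa7, Hoxd8 and Hoxd9 above and Hoxb9 and Hoxa10 below (Hoxa10 named after its values were seen). Hoxa7, Hoxd8 and Hoxd9 had 15.2 to 17.6, 10.4 to 15.4 and 11.3 to 15.2 CPM in Supraspinatus, against highest values of 12.6, 9.44 and 10 CPM in the others. These gaps were narrow, from 1.1- to 1.2-fold. Hoxb9 had 0.0108, 0, 0 and 0.0569 CPM in Supraspinatus and 0.134 to 2.09 CPM in the others. Hoxa10 had 23.4 to 26.2 CPM in Supraspinatus and at least 27.9 CPM in the others.

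Other Hox genes overlapped with some tendon and still differed. Hoxc8 had 0.148 ± 0.0724 CPM in Supraspinatus, 0.023 ± 0.0113 in Flexor, 2.47 ± 0.236 in Achilles and 33.4 ± 5.58 in Patellar (SD, n = 4 each). Hoxc6 had 4.99 ± 0.551 CPM in Supraspinatus, 0.052 ± 0.0152 in Flexor, 2.35 ± 0.322 in Achilles and 16.1 ± 2.18 in Patellar (SD, n = 4 each). Both genes passed against each other tendon, Hoxc6 being higher than Flexor by 6.56 (edgeR adjusted p = 2.3e-10) and lower than Patellar by a log2 fold change of -1.69 (edgeR adjusted p = 1.4e-06). Hoxa11, a factor of the middle limb segment, had 0.162, 0.393, 0.195 and 0.148 CPM in Supraspinatus and overlapped only with Patellar, against 9.03 ± 3.33 CPM in Achilles and 6.1 ± 0.526 in Flexor. Of the other limb factors, 15 were higher and 8 lower, against 24% and 20.4% of all genes. Tfap2b, a factor of neural crest and limb, had 0 to 0.0216 CPM in Supraspinatus and 0.0456 to 0.6 CPM in the others.

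**Figure D5:**
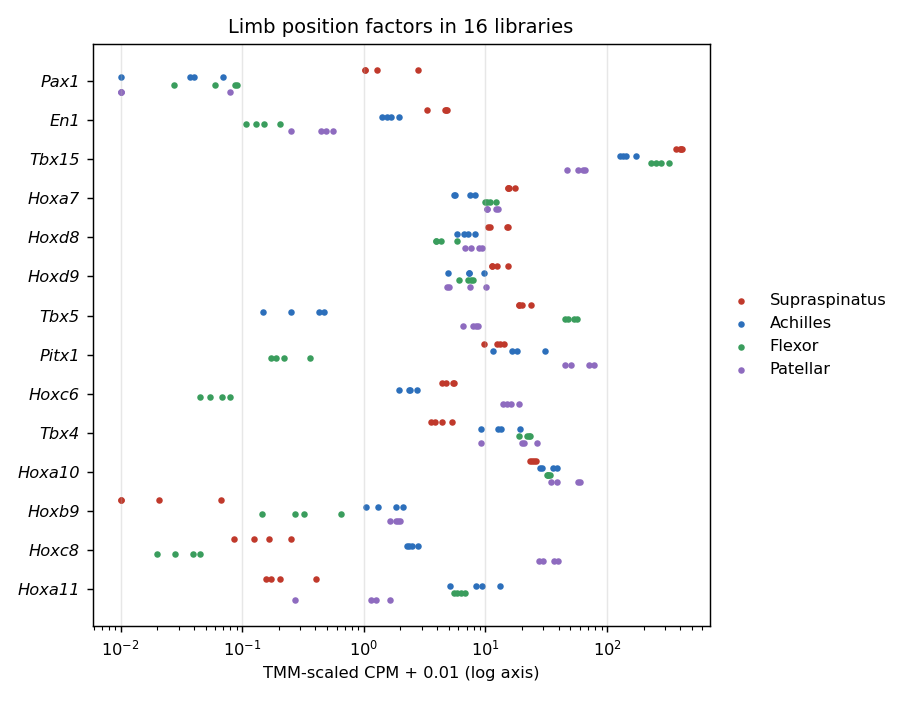
TMM-scaled CPM, with 0.01 added and on a log axis, of 14 limb position factors in each of the 16 libraries, coloured by tendon. Pax1, En1 and Tbx15 lie highest in Supraspinatus, Tbx4, Hoxa10 and Hoxb9 lowest, and Tbx5, Pitx1 and Hoxc6 lie between those of other tendons.

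Genes of growth factor pathways were counted in the same way, beside the 8.72% of all genes that lay above and the 4.57% that lay below the other libraries. Against the mean of the other tendons, 24% of all genes were higher and 20.4% lower. In Wnt signalling, in which secreted ligands act through Frizzled receptors, 14 of 46 genes were higher and 13 lower, and 9 did not overlap above and 2 below. Rspo1, a secreted factor that strengthens Wnt signals (chromosome 4, 124986430 to 125009099), had 20.7, 20.1, 21.4 and 38 CPM in Supraspinatus. It had 3.95 ± 0.187 CPM in Flexor, 1.26 ± 0.997 in Patellar and 0.554 ± 0.134 in Achilles (SD, n = 4 each), and its log2 fold change was 4.15 ± 0.28 (edgeR adjusted p = 2.5e-08).

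The ligand Wnt4 had 4.38, 5.22, 3.87 and 4.54 CPM in Supraspinatus and 0.0347 to 1.55 CPM in the others. The receptor Fzd7 had 75.3, 75.5, 72.2 and 87.5 CPM in Supraspinatus and 12.9 to 25.9 CPM in the others, with means between 18.5 and 20.8 CPM in all other tendons. Sfrp5, a secreted protein that binds Wnt ligands and restrains them (chromosome 19, 42197971 to 42202252), had 0.703, 0.628, 0.281 and 0.626 CPM in Supraspinatus and 3.26 to 75.4 CPM in the others. The ligand, the receptor and the enhancer thus lay above all other libraries and this inhibitor below them, although the pathway as a whole had nearly as many genes lower as higher. These 4 were named for having the widest gaps of the list. Shisa2, which restrains Wnt receptors and is outside this list, lay above all other libraries as well.

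In BMP and GDF signalling, 18 of 39 genes were higher and 8 lower, with 8 without overlap above and 2 below. The ligand Bmp6 had 18.1, 26.5, 36.8 and 22.5 CPM in Supraspinatus and 4.96 to 13.3 CPM in the others. The receptor Bmpr1a had 151, 145, 151 and 149 CPM in Supraspinatus and 51 to 81 CPM in the others, with a log2 fold change of 1.27 ± 0.1 (edgeR adjusted p = 9.9e-08). Both lay above every other library. The receptor Acvr2b, through which myostatin acts, had 16 to 20.8 CPM in Supraspinatus and 1.42 to 10.5 CPM in the others, and the extracellular antagonist Nog, noggin, had 2.76 to 4.81 CPM against 0.188 to 1.24 CPM. With the muscle marker level as a covariate, 12 genes of the list were higher and 2 lower (19 and 6 without the Patellar libraries as well), and Acvr2b no longer passed (0.77, edgeR adjusted p = 0.33). Of 18 TGF-beta genes, 9 were higher and 2 lower, and Smad3, which carries the signal to the nucleus, had 106 to 142 CPM in Supraspinatus and 36.3 to 85 CPM in the others.

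Of 35 FGF and IGF genes, 11 were higher and 9 lower, and 3 lay above and 3 below without overlap, near the shares of all genes. Igfbp4, a secreted protein that binds IGF and limits its action, had 35, 84.2, 36.4 and 90.3 CPM in Supraspinatus and 272 to 746 CPM in the others. Igf2r, a receptor that clears IGF2, had 134, 100, 120 and 115 CPM in Supraspinatus and 28.6 to 55.3 CPM in the others. Neither overlapped. Grb14, an inhibitor of the insulin receptor, had 9.7 to 17.3 CPM in Supraspinatus and 38.9 to 128 CPM in the others, and the FGF receptor Fgfr2 had 1.28 to 3.81 CPM against 5.79 to 18.5 CPM.

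Of 64 axon guidance genes, 11 were higher and 20 lower, against 24% higher and 20.4% lower of all genes. Besides Unc5a, the semaphorins Sema6c, with 105 to 147 CPM in Supraspinatus and 6.81 to 33.4 CPM in the others, and Sema3c, with 312 to 368 and 69 to 200 CPM, were set apart above. Epha5, a receptor for ephrins, had 0.433, 0.367, 0.476 and 0.524 CPM in Supraspinatus and 1.74 to 11 CPM in the others. Plxnb1, a semaphorin receptor, had 0.864 to 1.67 CPM in Supraspinatus and 2.99 to 25.8 CPM in the others. Guidance receptors were thus found on both sides.

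Further genes with wide gaps were lower in Supraspinatus. Pcdh9, a protocadherin of cell adhesion, had 2.76, 2.17, 1.34 and 1.48 CPM in Supraspinatus and 14.7 to 54.8 CPM in the others, with a log2 fold change of -3.87 ± 0.21 (edgeR adjusted p = 4.6e-09). Rasd1, a Ras-like protein induced by glucocorticoids, had 4.07, 4.77, 3.04 and 2.41 CPM in Supraspinatus and 22.2 to 66.6 CPM in the others. Adora1, the adenosine A1 receptor, had 0.244 to 1.85 CPM in Supraspinatus and 6.38 to 40.5 CPM in the others. None of these overlapped, and all passed against each tendon, but the rule that named them required both.

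Clock, stress and growth genes were counted too, beside the 24% of all genes that were higher and the 20.4% that were lower. Of 20 circadian clock genes, 11 were higher and 1 lower, and the labels used here give no time of collection. Cry1, a repressor of the clock, had 24.6, 20.6, 31.8 and 31.1 CPM in Supraspinatus and 1.74 to 13.7 CPM in the others. Nfil3, another repressor, had 25.7 to 47.7 CPM in Supraspinatus and at most 18.5 CPM, and Nr1d2 and Tef lay above the others too, at 239 to 286 and 328 to 422 CPM in Supraspinatus against highest values of 180 and 305 CPM. With the muscle marker level in the fit, 4 clock genes were higher and 1 lower, and without the Patellar libraries as well 8 were higher and 3 lower.

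Of 42 immediate-early and heat shock genes, 22 were higher and 3 lower, against 24% and 20.4% of all genes. Hsph1, a chaperone of the heat shock response, had 223, 154, 240 and 162 CPM in Supraspinatus and 37.1 to 59 CPM in the others, and Hspa8, a chaperone made without stress, 394 to 530 CPM against 154 to 292 CPM. The fit with the muscle covariate left 9 genes of this list higher and 3 lower, and without the Patellar libraries as well 21 were higher and 2 lower. The labels used here do not describe how the tissues were handled before RNA was taken.

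Of 76 cytoplasmic ribosomal protein genes, 40 were lower and 1 higher, with a median log2 fold change of 0 against Achilles, -0.35 against Flexor and -0.75 against Patellar. Without the Patellar libraries, 11 were lower and 3 higher. The gene that was higher was Rpl3l, a muscle form, with 278 to 342 CPM in Supraspinatus and 1.39 to 243 CPM in the others, while its general counterpart Rpl3 had 33.4, 53, 39.5 and 34.8 CPM in Supraspinatus and 58.1 to 120 CPM in the others. Rpl3l passed against Patellar but not against Achilles or Flexor (edgeR adjusted p = 0.1 and 0.56). Of 34 mitotic genes, 6 were higher and 4 lower, against 24% and 20.4% of all genes, with a median log2 fold change of -0.15. Without overlap, 3 lay above, near the 8.72% of all genes, and 0 below. Among those above were Tpx2, a spindle protein, at 16.4, 10.4, 9.71 and 8.4 CPM in Supraspinatus and 0.0694 to 4.69 CPM in the others, and its partner kinase Aurka at 4.08 to 5.66 CPM against 1.01 to 3.34 CPM.

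Tendon genes lay above all other libraries about as often as genes in general. Of 21 tendon genes, 8 were higher and 6 lower against the mean of the other tendons, beside 24% and 20.4% of all genes. Only 2, Chodl and Egr1, lay above every other library, near the 8.72% of all genes, and 0 lay below. Of the 8 tenocyte markers, 4 were higher and 1 lower, and 0 were without overlap. Scx was higher than Achilles (1.58, edgeR adjusted p = 5e-04) and Flexor (3.52, edgeR adjusted p = 4.4e-07) and lower than Patellar (-0.86, edgeR adjusted p = 0.015), all on the log2 scale. Mkx, another tendon transcription factor, had 31.7 ± 11.5 CPM in Supraspinatus, 41.1 ± 14.6 in Achilles, 38.7 ± 5.07 in Flexor and 92.7 ± 21.3 in Patellar (SD, n = 4 each), and was lower than Patellar alone. The proteoglycan Fmod, fibromodulin, had 4455 ± 1930 CPM in Supraspinatus, inside the 1047 to 7982 CPM of the other libraries, and did not pass (edgeR adjusted p = 0.47). Kera, keratocan (chosen after its values were seen), had 209, 83.3, 152 and 848 CPM in Supraspinatus and 19.1 to 372 CPM in the others, with replicate 4 far above the rest. Thbs4, a thrombospondin of the myotendinous junction, had 809 to 4038 CPM in Supraspinatus and 635 to 2624 CPM in the others, and did not pass (edgeR adjusted p = 0.072).

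Muscle content differed between the libraries, and some calls against the mean of the other tendons no longer passed with the muscle marker level as a covariate. The covariate is the mean level of the skeletal muscle markers, which include Acta1 and Myh2. The change of these genes with it is therefore partly built in. The log2 fold change became much smaller for Acta1 (0.36 with the covariate, against 2.48 without it), Pgam2 (0.48 against 2.66) and Rpl3l (0.17 against 2.27). It moved less for Ntf5 (2.18 against 3.72), Tpx2 (1.67 against 2.55), Acvr2b (0.77 against 1.36), Pitx1 (0.72 against 0.94), Cpa3 (-2.55 against -3.4), Cma1 (-2.57 against -3.44), Mertk (-0.98 against -1.49) and Pi16 (-1.85 against -3.36), and that of Mkx was no nearer to 0 (-0.92 against -0.74). The edgeR adjusted p of these 12 genes ranged from 0.055 to 0.75 with the covariate. With the covariate and without the Patellar libraries, 10 of them passed again in the same direction, all but Cma1 and Mkx. Lmcd1 and Pax7, which had been higher, turned sign with the covariate and did not pass (-0.12 and -0.45, edgeR adjusted p = 0.8 and 0.65). The sign of Myh2 turned, from 0.55 without the covariate (edgeR adjusted p = 0.49) to -2.15 with it (edgeR adjusted p = 0.021). Of the genes with the widest gaps, Unc5a, Tbx1, Kcna1 and C2 kept their calls under each of the other settings, and so did Myo1a in those that tested it, which leaves out the filter at a mean of 5 CPM.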

How the data were processed

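Per the labels' protocols, RNA was isolated with small-sample columns, treated with DNase and made into Illumina libraries. The authors deposited raw read counts, not normalized, of 41204 genes in the 16 libraries. The submitters' processing notes name mm10, HISAT2, FastQC and edgeR without their roles. No source used here names the counter, strand setting, annotation release or versions, so counts of overlapping, antisense and near-identical genes are uncertain. The members and gene lists were chosen with earlier results of these data known.

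Each library was assigned to its tendon by its label. The model was fitted with edgeR 4.0.16 in R 4.3.3, using filterByExpr by tendon, TMM scaling and a robust quasi-likelihood fit with 1 mean per tendon over 16 libraries, without covariate or block. All tests were 2-sided. The fit was checked on simulated data. Percentages of counts in 18 marker lists were compared by exact permutation over 1820 assignments (scipy 1.17.1), with Benjamini-Hochberg adjustment. The permutations treat the libraries of the other tendons as 1 group, although those tendons differ among themselves.

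Genes were named by a rule. The ranking took genes without overlap that passed all 4 contrasts in 1 direction. It required a mean of at least 5 CPM in Supraspinatus (higher) or in each other tendon (lower). Ranked by their gap, the first 12 higher and 12 lower were taken, and the first 16 higher and 8 lower in no marker list. Up to 4 members per list, by the same gap, and a panel of limb, tendon, muscle and fat genes were added. List members had only to be without overlap and to pass against the mean of the other tendons, at any CPM. The panel had no such requirement. Predicted genes, pseudogenes and mitochondrially encoded genes were left out of the ranking, and 1 gene that the rule takes is not reported here. Not every gene the rule takes is described. Positions are gene spans of GENCODE for GRCm38, and promoters are from RefSeq.

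Other settings were DESeq2 1.42.0, voom in limma 3.58.1, median-ratio size factors, no filter, a mean of at least 5 CPM, a block by mouse number, the level of muscle markers (mean log2 CPM) as a covariate, leaving out the Patellar libraries, 7 rRNA-like genes or each library, a required log2 fold change of 1 either way, 4 against 12 libraries as 2 groups, CPM on total counts, a gap of at least 1.5-fold, and thinning to the smallest total. The covariate without the Patellar libraries was chosen after seeing the data. The second deposited table, of the authors' own comparisons, was not used here. Python 3.11.15 with matplotlib 3.10.9 drew the figures.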

Additional observations from a re-analysis of the deposited data

Results flagged for a closer look

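In groups of 4 libraries, a library was marked when its gap to the nearest other library, over the range of its group, exceeded Dixon's critical value. Of 616 groups tested, 51 were marked (8.28%), where chance marks about 1 in 20, and no cause was tested.

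Supraspinatus replicate 2 stood out in 9 of them. It was the highest for the mast cell genes Tpsb2 (1.73 CPM), Cpa3 (1.49), Cma1 (1.94) and Mcpt4 (1.35), for the mast cell share of counts (0.0008%), for the macrophage share (0.212%), for Pax1 (2.78 CPM) and for Cox8a (82.7 CPM), and the lowest for Cyp4f39 (3.37 CPM). Supraspinatus replicate 4 was the highest for Kera (848 CPM, against 83.3 to 209 in the others), Rspo1 (38), Scd1 (340) and Mcam (33.3), and the lowest for Myh4 (24600), En1 (3.32) and Nfil3 (25.7). Supraspinatus replicate 1 was the highest for Myh2 (2010) and Tfap2b (0.0216), and replicate 3 was the highest for Hoxa7 (17.6) and the lowest for Mertk (5.08). Each of these Supraspinatus values of a gene without overlap still lay on its own side of the other 12 libraries.

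Among the other tendons, Achilles replicate 3 was the highest for the muscle genes Acta1 (32500 CPM), Myh1 (3550), Pgam2 (969), Lmcd1 (502), Rpl3l (208) and Mylk2 (202) and for Fbxo31 (67), and Achilles replicate 2 the lowest for Bmpr1a (51). Patellar replicate 1 was the highest for the muscle genes Tpm3 (435), Tnnc1 (237), Myh7 (213), Sln (36), Chodl (6.62) and Pax7 (0.322) and for Prg4 (2060), and the lowest for Lamc1 (81.1). Patellar replicate 2 was the highest for Kcna1 (32.8), Cyp4f39 (0.234) and the lymphocyte share (0.0127%), replicate 3 for Pi16 (152), Unc5a (2.53) and Pax1 (0.0694), and replicate 4 for Nr1d2 (111) and Ntf5 (0.78). Flexor replicate 1 was the highest for Myh2 (5860), Igfbp4 (393) and Myh7 (23.9) and the lowest for Egfl7 (32.7), replicate 3 the lowest for Kcna1 (28.1), and replicate 4 the highest for Myh7b (9.44) and the lowest for Cldn5 (27.8).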

How the results depend on the processing

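Median-ratio size factors, no filter, DESeq2, limma with voom and leaving out 7 rRNA-like genes kept each count of genes within 1.5 times. With a mean of at least 5 CPM, which tests fewer genes, 3262 genes were higher and 3127 lower against the mean of the other tendons, 2302 and 2392 against Achilles, 3390 and 3685 against Patellar, and 1108 were higher without overlap. With the muscle covariate the counts were 3372 and 2754 against the mean and 2159 and 1869 against Patellar. Against Achilles they were 4105 and 4053, and against Flexor 3625 and 3051, within 1.5 times of the main counts. Without the Patellar libraries 5240 genes were higher against Flexor, and 3367 and 2327 did not overlap. Requiring a log2 fold change of 1 either way left 2602 and 2894 against the mean, 1919 higher against Achilles, 1971 and 1738 against Flexor and 3868 higher against Patellar. As 2 groups the counts were 2496 and 2732. CPM on total counts gave 1132 and 1904 without overlap, and a gap of at least 1.5-fold 504 and 240. Where a cause is not named, it was not tested.

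With each library left out, the ranges were 4985 to 6090 and 3592 to 5814 against the mean, 3112 to 4576 and 2967 to 5055 against Achilles, 2927 to 3878 and 2238 to 4200 against Flexor, 5925 to 6646 and 5574 to 6764 against Patellar, and 2082 to 2701 and 1080 to 1510 without overlap. The differences in marker shares ranged from 12 to 13.5 percentage points for muscle (adjusted p from 0.0088 to 0.066), from -0.00328 to -0.00289 for mast cells (0.0088 to 0.059), from -0.000494 to -0.000326 for neutrophils and from -0.149 to -0.113 for gliding surfaces, whose lowest adjusted p, 0.042 each, came without Patellar replicate 3, by exact permutation tests.

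The mouse number as a block gave 5531 and 4581 genes against the mean and changed no call of a named gene. Deviations of libraries with the same number correlated from -0.062 to 0.255, with a mean of 0.054 against -0.018 for different numbers. The correlation was over 0.1 in 2 of 12 pairs, and 5 of 12 correlated best with their own number. These values do not settle whether libraries share a mouse, and the number was used as a name only.

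With the muscle covariate 32 skeletal muscle markers were higher and 22 lower, 11 adipocyte and 4 mast cell markers lower, 5 collagens lower, and 11 axon guidance genes higher and 8 lower. With the Patellar libraries left out as well, the counts were 41 and 17, 10 and 8, 10, and 18 and 18, and 3 ribosomal protein genes were lower. The skeletal muscle markers make up the covariate, so their own counts under it are partly built in.

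Of 136 named genes, 107 had a value under every setting, and 82 of these kept direction and call in all. The other 29 lacked a value under 1 setting, and 22 of these kept both in the rest. Signs turned for Myh2 (-2.15 with the muscle covariate, -2.02 also without Patellar), Lmcd1 (-0.12 and -0.68 likewise, and -0.17 without Patellar alone), Pax7 (-0.45 with the covariate), Mkx (0.14 with the covariate without Patellar), and, as 2 groups, Hoxc6 (-0.3) and Pitx1 (-1.12).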

Other observations

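Further cell types of the tissue were counted, beside the 24% of all genes that were higher and the 20.4% that were lower. Of 12 markers of satellite cells, the stem cells of muscle, 6 were higher and 1 lower in Supraspinatus, and their share of counts was 0.0424% ± 0.00877 in Supraspinatus, 0.0505% ± 0.00784 in Achilles, 0.0402% ± 0.00385 in Flexor and 0.0151% ± 0.00615 in Patellar (SD, n = 4 each). Without the Patellar libraries 3 were higher and 4 lower, and with the muscle covariate as well 1 and 2. Chodl, a membrane lectin of such cells, had 184, 87.3, 141 and 181 CPM in Supraspinatus and 0.764 to 48.8 CPM in the others. Pax7, the transcription factor that defines them, had 1.27 to 1.79 CPM in Supraspinatus and at most 1.18 CPM in the others, and its sign turned with the muscle marker level as a covariate. It passed against Patellar but not against Achilles or Flexor (edgeR adjusted p = 0.48 and 0.24). Of 18 genes of the neuromuscular junction, 5 were higher and 5 lower, and 0 were without overlap.

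Among vessel genes, the endothelial junction protein Cldn5 had 7.25 to 13.9 CPM in Supraspinatus and 17.7 to 72.2 CPM in the others, and the endothelial factors Erg and Egfl7 lay below all other libraries as well, at 3.15 to 4.21 and 22.6 to 26.8 CPM in Supraspinatus against lowest values of 4.79 and 30 CPM. The pericyte and smooth muscle list was split. Abcc9, a subunit of ATP-sensitive potassium channels of pericytes and muscle, had 192 to 260 CPM in Supraspinatus and 11.2 to 183 CPM in the others, while the pericyte adhesion protein Mcam had 17.5 to 33.3 CPM against 38.3 to 204 CPM. Pi16, a marker of sheath fibroblasts, had 3.59 to 6.47 CPM in Supraspinatus and 12.4 to 152 CPM in the others, and did not pass with the muscle covariate. Egr1, a transcription factor induced by load in tendon, had 124 to 154 CPM in Supraspinatus and 46.2 to 114 CPM in the others, with a log2 fold change of 0.93 ± 0.2 (edgeR adjusted p = 0.0015).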
